A study of Mus musculus with 39 samples.

Results

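DNA replication and mitosis genes were followed through 39 intestinal RNA-seq libraries as a fixed set of 41 mouse genes, 20 that act in S phase and 21 that act in mitosis. All 41 were found by symbol among the 49585 gene IDs of the deposited count tables, each under 1 ID, and all 41 passed the filter on low counts that left 16327 genes to test. Every mouse was C57BL/6 and carried Apc Min/+, a truncating allele of the tumour suppressor Apc that causes intestinal adenomas, so the wild-type comparison group carried it too. Mice with wild-type Adam17 (ADAM17wt/wt) gave 12 tumour and 4 surrounding non-tumour libraries. Mice homozygous for the hypomorphic Adam17 ex/ex allele, which leaves only traces of the sheddase ADAM17 in all tissues, gave 17 tumour and 6 non-tumour libraries. The title of the series ties ADAM17 to EGF receptor driven intestinal tumours and IL-6 trans-signalling. Age, sex, treatment and the animal of origin are not stated in the labels, so libraries may share animals, and a p-value reflects only how these libraries vary, in part perhaps for technical reasons. All libraries came from whole tissue, in which fewer cells of a type and less RNA per cell cannot be told apart.

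Before a cell divides, the MCM helicase is loaded at replication origins by Cdc6 and Cdt1, is switched on with Cdc45 and the GINS complex, and opens the DNA for polymerase alpha and primase. Genes of this stage are driven mainly by E2F factors, which are released from retinoblastoma proteins when cyclin D and cyclin E kinases act. Genes of mitosis come on later, through the MuvB complex with B-Myb and FoxM1. Their promoters often carry a CCAAT box and a cell cycle homology region (CHR, TTTGAA). In the intestine these genes are active in the dividing cells of the crypts and of adenomas. They are also high in germinal centre B cells, which divide rapidly in lymphoid follicles of the gut wall. Cd79a, a subunit of the B cell receptor, is therefore given beside the division genes.

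RefSeq promoter windows (GRCm38.p6, from 250 bases before to 50 bases after each start) were found for 32 of the 41 genes, 16 of each stage. E2F motifs (GCGGGAA or GCGCGAA, either strand) were present in 68.8% of the S phase genes, in 6.25% of the mitosis genes (Cdk1 alone) and in 6.86% of 27025 genes with a window. The CHR letters TTTGAA showed the opposite split, at 12.5% of the S phase genes, 68.8% of the mitosis genes and 20.2% of all genes. CCAAT was present in 68.8%, 87.5% and 41.1%, and CCAAT together with TTTGAA in 12.5%, 68.8% and 7.97%. In the printed windows no matches overlap, and a match describes the window without showing that a factor binds there. The sequences below show 3 S phase promoters with an E2F motif and 2 mitosis promoters with CCAAT and CHR motifs, as the 250 bases before the start on the gene's own strand. Capitals mark the E2F motif in the S phase genes, which in Uhrf1 and Mcm5 lies on the other strand and so shows as its reverse complement. In the mitosis genes they mark CCAAT and TTTGAA, with 1 CCAAT of Mki67 as its reverse complement.
Cdc6 (chr11:98907901-98908150, plus strand): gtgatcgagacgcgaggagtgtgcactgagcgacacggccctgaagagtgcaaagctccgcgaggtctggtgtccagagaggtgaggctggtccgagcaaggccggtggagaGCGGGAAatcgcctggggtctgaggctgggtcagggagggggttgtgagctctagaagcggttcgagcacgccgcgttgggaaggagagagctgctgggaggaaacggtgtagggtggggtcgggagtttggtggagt
Uhrf1 (chr17:56303087-56303336, plus strand): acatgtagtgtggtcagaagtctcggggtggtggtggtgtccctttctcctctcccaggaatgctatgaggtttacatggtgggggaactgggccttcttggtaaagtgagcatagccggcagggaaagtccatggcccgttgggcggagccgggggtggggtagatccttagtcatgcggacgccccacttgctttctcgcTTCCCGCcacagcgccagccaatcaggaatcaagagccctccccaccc
Mcm5 (chr8:75109259-75109508, plus strand): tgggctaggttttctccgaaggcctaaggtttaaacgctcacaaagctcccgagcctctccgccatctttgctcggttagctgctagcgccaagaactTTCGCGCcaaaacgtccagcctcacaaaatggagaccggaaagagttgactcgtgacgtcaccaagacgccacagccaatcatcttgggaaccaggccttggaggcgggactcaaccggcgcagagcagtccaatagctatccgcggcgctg
Mki67 (chr7:135716380-135716629, minus strand): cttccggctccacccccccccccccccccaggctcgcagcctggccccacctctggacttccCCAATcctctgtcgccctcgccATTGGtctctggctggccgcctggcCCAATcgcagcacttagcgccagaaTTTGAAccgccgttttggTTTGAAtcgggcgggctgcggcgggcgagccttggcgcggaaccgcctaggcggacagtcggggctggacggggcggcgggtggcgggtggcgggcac
Cdc20 (chr4:118437344-118437593, minus strand): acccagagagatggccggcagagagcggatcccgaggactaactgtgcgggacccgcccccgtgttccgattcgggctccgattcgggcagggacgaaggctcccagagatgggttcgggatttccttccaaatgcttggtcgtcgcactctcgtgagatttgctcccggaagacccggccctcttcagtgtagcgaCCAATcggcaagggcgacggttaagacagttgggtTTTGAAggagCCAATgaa
In the Cdc6 window the motif began 138 bases before the start, in Mcm5 152 bases and in Uhrf1 48 bases before it. Mki67 held its TTTGAA matches 116 and 98 bases before the start, downstream of 3 CCAAT boxes. Cdc20 held a single TTTGAA 18 bases before the start, between CCAAT boxes at 53 and 8 bases.

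Depth was between 5668185 and 11112321 gene counts in 38 libraries and 438639 in wild-type non-tumour replicate 1. In that library the 41 genes together held 134 counts and 8 of them were at 0, while in the other 38 libraries no member fell below 9 counts. Adam17, which the hypomorphic allele lowers, was at 38.5 to 86.0 CPM in wild-type tumours and 14.5 to 33.5 CPM in ex/ex tumours. In non-tumour tissue it was at 48.5 to 63.5 CPM in the 3 deeper wild-type libraries, at 6.06 CPM, or 1 count, in the shallow one, and at 9.67 to 14.6 CPM in ex/ex. CPM is the count scaled to a common library size after TMM normalization. Ex/ex tumour replicates 1 to 3 and ex/ex non-tumour replicates 1 and 2 look male by Xist (0.577 to 3.57 CPM) and Ddx3y (33.9 to 44.1 CPM), and all other libraries look female. Wild-type non-tumour replicate 4 was rich in red blood cell genes (1163 CPM summed, where the median of its group was 64.3 CPM). Epithelial markers such as Epcam were present in every library, from 83.3 to 3979 CPM.

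Mki67, the chromosome surface protein scored as Ki-67, was at 54.5, 128, 131 and 186 CPM in the 4 wild-type non-tumour libraries. It ran from 81.1 through a median of 125 to 353 CPM in wild-type tumours. In ex/ex it ran from 112 through 167 to 231.8 CPM in non-tumour tissue and from 49.7 through 287 to 613 CPM in tumours. The ex/ex tumours therefore held both the lowest and the highest Mki67 of all libraries, and 11 of 17 lay above every ex/ex non-tumour library while 2 lay below.

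Top2a, the topoisomerase that untangles chromosomes before segregation, was at 109, 142, 145 and 169 CPM in wild-type non-tumour tissue, and from 71.5 through 147 to 233.8 CPM in wild-type tumours. The same gene ran from 92.6 through 182 to 203 CPM in ex/ex non-tumour tissue and from 51.3 through 223 to 402 CPM in ex/ex tumours. All 4 groups overlapped. Pcna, the sliding clamp of the replication fork, was at 42.4, 44.7, 42.0 and 43.9 CPM in wild-type non-tumour tissue and from 28.6 through 40.5 to 61.3 CPM in wild-type tumours. It ran from 33.2 through 42.6 to 49.3 CPM in ex/ex non-tumour tissue and from 33.9 through 66.0 to 102 CPM in ex/ex tumours. No ex/ex tumour lay below all ex/ex non-tumour libraries for Pcna, and 11 of 17 lay above all of them.

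Mcm3, a subunit of the replicative helicase, was at 18.2, 33.3, 32.6 and 65.5 CPM in wild-type non-tumour tissue. It ran from 22.2 through 59.0 to 116 CPM in wild-type tumours, from 25.6 through 29.4 to 41.2 CPM in ex/ex non-tumour tissue and from 15.8 through 107 to 196 CPM in ex/ex tumours. Of the 17 ex/ex tumours 15 lay above all ex/ex non-tumour libraries, and replicates 1 and 2 lay below all of them. Per kilobase of annotated exon, the highest mean levels in ex/ex tumours were those of Mcm6 (31.9 ± 16.2 CPM per kb, SD, n = 17), Mki67 (31.6 ± 17.6), Mcm3 (29.4 ± 15.2) and Pcna (28.2 ± 10.4). These SDs describe the spread between tumours, and whether the genes differ within libraries was not tested. The lowest were Gins2 (1.93 ± 0.88 CPM per kb), Chek1 (2.14 ± 1.13) and Cenpf (2.51 ± 1.31). The length was that of all annotated exons of a gene merged. It can exceed that of the transcript expressed, so this order depends in part on the annotation. Reads that align to several places were not counted, and pseudogene copies exist for Pcna, Ccnb1 and Ccnb2. The Pcna copy Pcna-ps2 held 5 to 471 counts, and the other 3 copies held at most 5. Reads shared by a gene and its copy are in neither count. The level of Pcna is therefore uncertain by an amount that these counts do not measure.

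**Figure D1:**
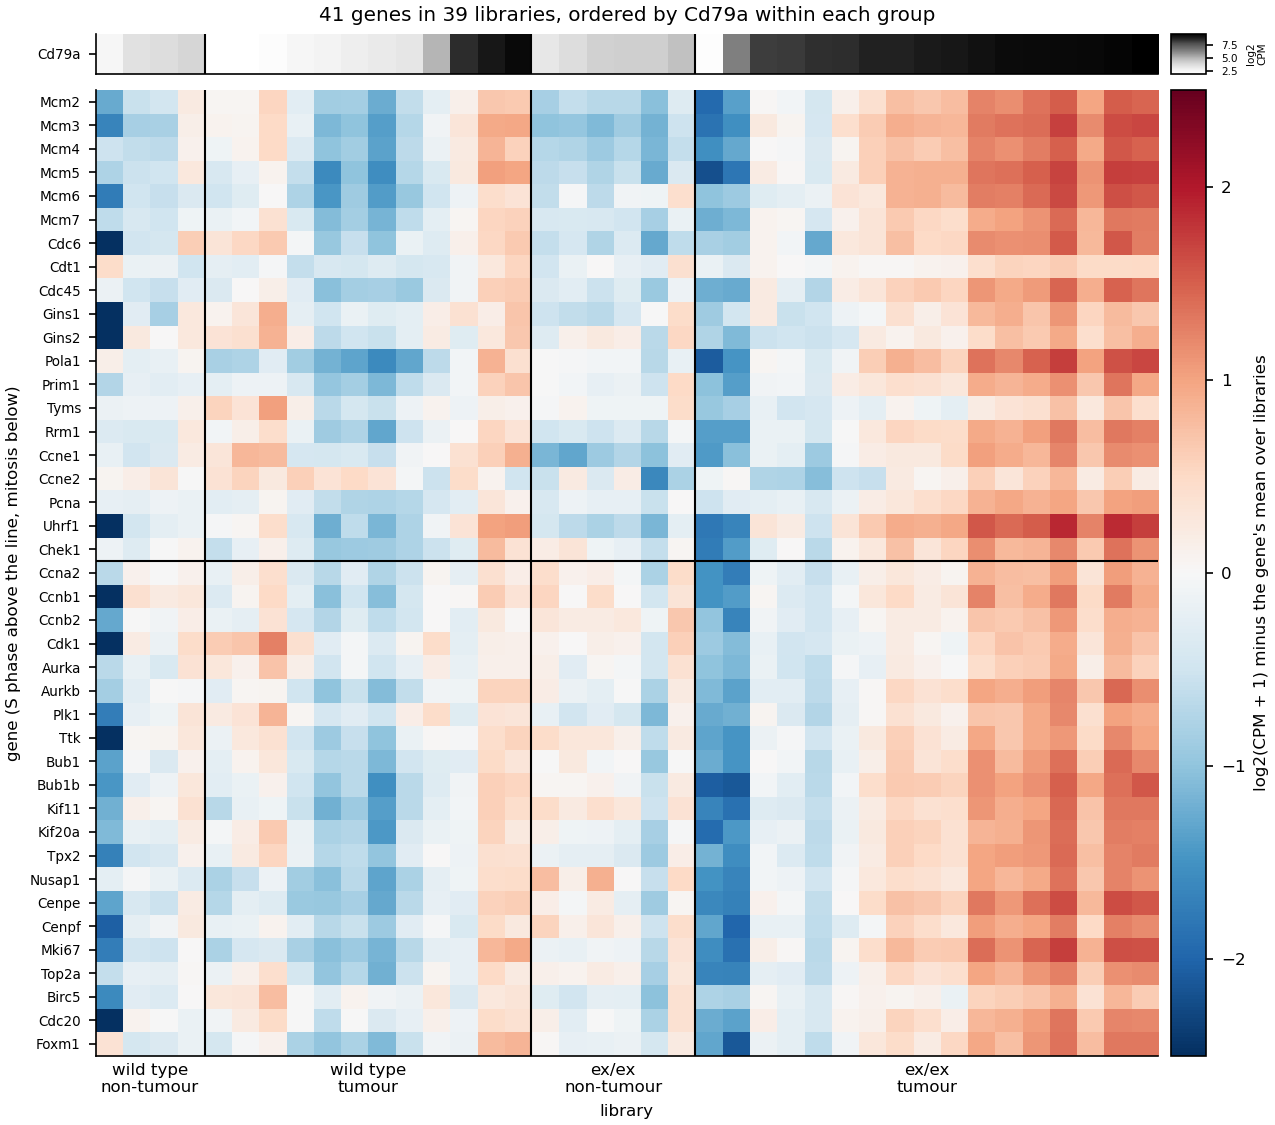
Levels of the 41 genes (rows) in 39 libraries (columns), as log2(CPM + 1) minus each gene's mean over the libraries, with log2 CPM of Cd79a in the grey strip; libraries are ordered by Cd79a within each group, S phase genes lie above the line and mitosis genes below. In ex/ex tumours nearly all rows go from low to high along Cd79a, and of the 3 wild-type tumours with the highest Cd79a, replicates 1 and 4 are above the gene's mean for 41 and 40 genes and replicate 7 for 12.

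As a mean over log2 CPM, the 20 S phase genes ran from 3.64 through a median of 4.45 to 5.21 in wild-type tumours and from 3.30 through 5.13 to 5.97 in ex/ex tumours. In ex/ex non-tumour tissue they ran from 3.79 through 4.20 to 4.55. The 21 mitosis genes ran from 4.38 through 5.12 to 5.40 in ex/ex non-tumour tissue and from 3.46 through 5.45 to 6.39 in ex/ex tumours. Within a library the S phase mean was below the mitosis mean by 0.60 to 1.15 (log2) in all 6 ex/ex non-tumour libraries, at differences of -1.15, -1.06, -0.85, -0.77, -0.77 and -0.60. In the 17 ex/ex tumours the difference lay between -0.45 and 0.014, above every ex/ex non-tumour library. The balance of both stages thus separated ex/ex tumours from ex/ex non-tumour tissue in every library, while the level of either stage alone did not. The nearest libraries were non-tumour replicate 4 (-0.60) and tumour replicate 17 (-0.45). How often the balance of other gene sets would separate them was not examined. Of all tested genes 23.8% were called higher and 23.3% lower in these tumours (edgeR adjusted p under 0.05). Wild-type tumours ran from -0.72 to -0.22 and the 3 deeper wild-type non-tumour libraries from -0.70 to -0.56, which overlap.

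**Figure D2:**
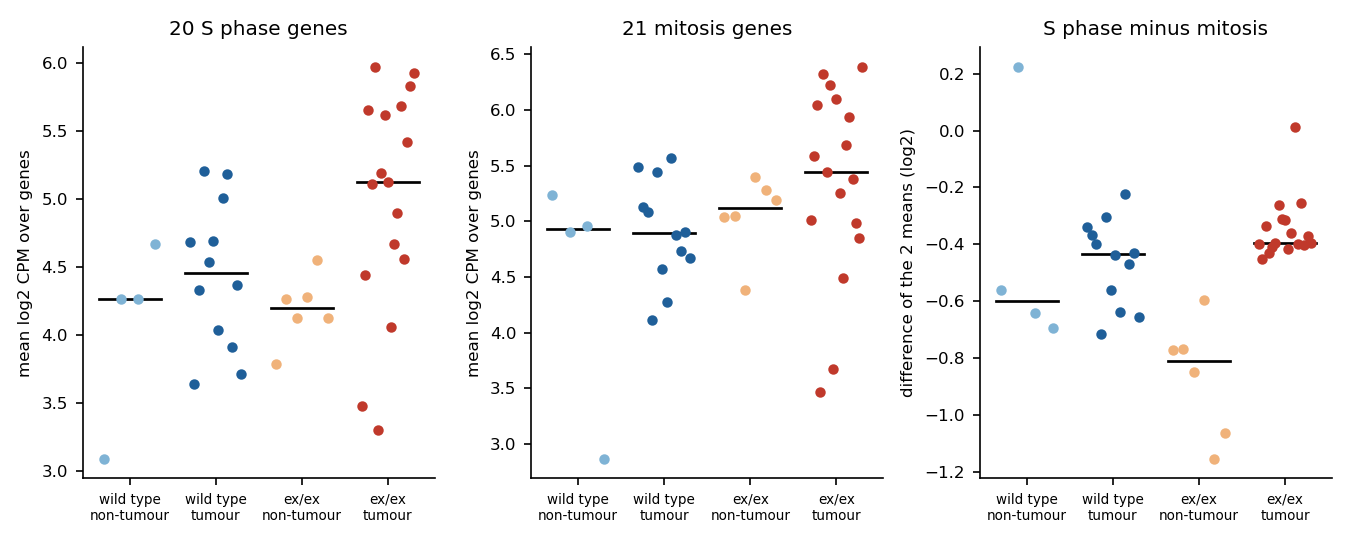
Mean log2 CPM per library over the 20 S phase genes (left) and the 21 mitosis genes (middle), and their difference (right), in 4 groups; points are libraries, spread sideways at random, and bars are medians. The 6 ex/ex non-tumour libraries lie between -1.15 and -0.60 in the right panel and all 17 ex/ex tumours between -0.45 and 0.014; the wild-type non-tumour library at 0.225 is the shallow one.

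Tumours were first compared with the surrounding tissue of the same genotype. In ex/ex, 14 of 20 S phase genes rose in tumours and 0 fell, against 23.8% of all tested genes higher and 23.3% lower (edgeR quasi-likelihood test, Benjamini-Hochberg adjusted p under 0.05). Of the 21 mitosis genes 3 rose and 0 fell, a share below that background. The median log2 fold change was 0.99 for S phase genes and 0.51 for mitosis genes, beside -0.03 for all tested genes.

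All 6 subunits of the MCM helicase rose. Mcm3 had the largest change, from a mean of 30.7 ± 5.6 CPM (SD, n = 6) in non-tumour tissue to 110 ± 57 CPM (SD, n = 17) in tumours, a log2 fold change of 1.85 ± 0.41 (SE, edgeR adjusted p = 5.44e-04). Mcm4 went from 23.4 through 31.3 to 34.4 CPM in non-tumour tissue to 17.5 through 87.7 to 157 CPM in tumours (1.57 ± 0.36, edgeR adjusted p = 7.05e-04), with 15 tumours above and 2 below all non-tumour libraries. Mcm5 (1.59 ± 0.43), Mcm2 (1.45 ± 0.37), Mcm7 (1.05 ± 0.30) and Mcm6 (0.97 ± 0.34) also rose. Of the genes that load and start the helicase, the loader Cdc6 rose (1.47 ± 0.38), as did the helicase partners Cdc45 (1.11 ± 0.34) and Gins1 (0.70 ± 0.29, edgeR adjusted p = 0.0492). The Gins1 call was lost in 18 of 39 fits that left out 1 library, at adjusted p up to 0.118, and also with no count filter (0.0586), with both ex/ex groups alone (0.0528) and without the libraries that look male (0.0556). Cdt1 (0.34 ± 0.16) and Gins2 (0.19 ± 0.29) did not pass the test.

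Cyclin E1 (Ccne1), which with CDK2 starts S phase, was at 2.23 through 3.08 to 5.60 CPM in ex/ex non-tumour tissue and 1.99 through 8.48 to 17.5 CPM in tumours. It rose by 1.54 ± 0.36 (edgeR adjusted p = 9.72e-04), with 14 of 17 tumours above all non-tumour libraries. Its paralogue Ccne2 was at 0.49 ± 0.26 and was not called. Uhrf1, which guides maintenance DNA methylation behind the fork, rose by 1.66 ± 0.43, and Pcna by 0.70 ± 0.21. The catalytic subunit of polymerase alpha (Pola1, 1.01 ± 0.40) and the large subunit of ribonucleotide reductase (Rrm1, 0.94 ± 0.31) rose, whereas thymidylate synthase (Tyms) was level at 0.004 ± 0.209, with means of 27.8 ± 4.8 and 27.8 ± 9.3 CPM. The Pola1 call was lost whichever of the 6 ex/ex non-tumour libraries was left out, at edgeR adjusted p of 0.0515 to 0.0823. Primase (Prim1, 0.54 ± 0.29) and the checkpoint kinase Chek1 (0.61 ± 0.36) were not called.

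The 3 mitosis genes that rose were the spindle assembly factor Tpx2 (0.81 ± 0.32, edgeR adjusted p = 0.0326), the Polo-like kinase Plk1 (0.72 ± 0.29, 0.038) and survivin (Birc5, 0.51 ± 0.22, 0.049). Tpx2 ran from 21.4 through 35.1 to 46.0 CPM in ex/ex non-tumour tissue and from 13.4 through 58.6 to 111 CPM in tumours. Plk1 ran from 9.67 through 17.2 to 24.3 CPM in non-tumour tissue and from 8.68 through 26.6 to 52.7 CPM in tumours. For both genes 2 tumours lay below all non-tumour libraries, and 11 and 9 lay above. Birc5 ran from 18.5 through 31.5 to 50.1 CPM in non-tumour tissue and from 21.5 through 41.3 to 72.1 CPM in tumours, with 6 tumours above and 0 below.

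None of the 4 genes for mitotic cyclins and their kinase passed the test, at 0.30 ± 0.33 for Ccnb1, 0.19 ± 0.28 for Ccna2, 0.09 ± 0.27 for Cdk1 and -0.004 ± 0.244 for Ccnb2. Mki67 was at 0.91 ± 0.39 (edgeR adjusted p = 0.0501) and the kinetochore motor Cenpe at 0.85 ± 0.37 (0.0551). The count of mitosis genes went from 3 to 11 without ex/ex tumour replicates 1 and 2, and to 0 when ex/ex non-tumour replicate 1, 2, 4 or 5 was left out or when both ex/ex groups were fitted alone. It was 8 without ex/ex tumour replicate 1 or 2, and 5 without ex/ex tumour replicate 3, 7, 16 or 17, wild-type tumour replicate 1, 4, 7 or 8, or wild-type non-tumour replicate 4. The S phase count stayed between 12 and 15 whichever library was left out.

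B cell markers moved with the S phase genes in this comparison. Their summed level over 10 markers was 29.4 to 57.6 CPM in ex/ex non-tumour tissue and 15.1 to 4249 CPM in ex/ex tumours, and 10 of 10 rose. Cd79a was at 9.93 through 18.4 to 25.8 CPM in non-tumour tissue and 4.41 through 462 to 739 CPM in tumours. Germinal centre markers summed to 75.0 to 90.9 CPM and 90.8 to 1193 CPM, with Mef2b at 0 in every ex/ex non-tumour library, and 8 of the 9 tested rose. T cell markers summed to 62.8 to 112 CPM and 46.0 to 567.9 CPM, and 10 of 11 rose. Of the 10 epithelial markers 0 were called (edgeR; 0 at an unadjusted p under 0.05), and 10 of 10 crypt stem cell markers fell, from a summed 1120 to 1481 CPM to 146 to 538 CPM. Endothelial markers fell for 7 of 8 and red blood cell markers for 4 of 5 tested. With log2 CPM of Cd79a as a covariate in the fit, 0 of 20 S phase genes were called and the S phase median was 0.06, with the mitosis median at -0.49 and 1 mitosis gene, the spindle protein Nusap1, lower. In this fit 1 slope on Cd79a was shared by all 4 groups. Cd79a itself differed between the tissues compared, so B cells and tissue cannot be told apart by this fit. The part of B cells in these changes was not tested.

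**Figure D3:**
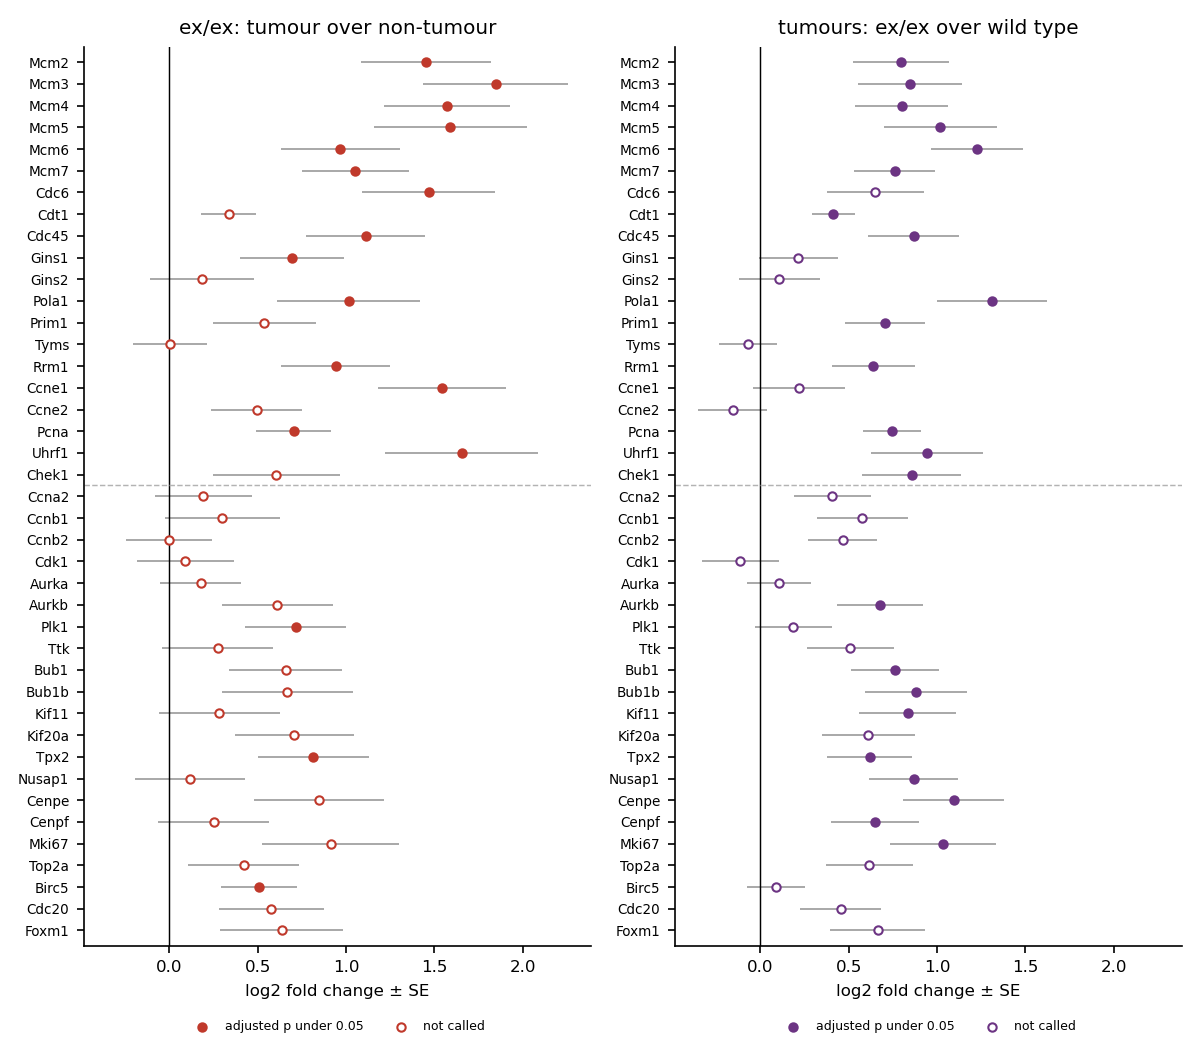
Log2 fold change ± SE of the 41 genes in ex/ex tumours over ex/ex non-tumour tissue (left) and in ex/ex over wild-type tumours (right), from 1 edgeR fit of 39 libraries; S phase genes lie above the dashed line, and filled points have an adjusted p under 0.05 over 16327 genes. S phase genes fill 14 points on each side, mitosis genes 3 on the left and 9 on the right, and no filled point is below 0.

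Ex/ex tumours were then compared with wild-type tumours. Here 14 of 20 S phase genes and 9 of 21 mitosis genes were higher in ex/ex and 0 were lower, against 15.2% of tested genes higher and 18% lower (edgeR). The medians were 0.75 and 0.62, beside -0.01 for all tested genes. This comparison and the one within ex/ex share the 17 ex/ex tumours, so their values stand side by side and are not independent.

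Mcm6 differed most clearly among the helicase genes, at 29.8 through 58.6 to 114 CPM in wild-type tumours and 40.98 through 153 to 263.7 CPM in ex/ex tumours (1.23 ± 0.26, edgeR adjusted p = 4.92e-04). The other 5 MCM genes were higher by 0.76 to 1.02. Pola1 was at 6.56 through 12.2 to 40.9 CPM and 4.41 through 38.0 to 74.5 CPM (1.31 ± 0.31, edgeR adjusted p = 0.00162), and Prim1 was higher by 0.71 ± 0.23. Pcna (0.74 ± 0.16, edgeR adjusted p = 7.13e-04), Uhrf1 (0.94 ± 0.32), Chek1 (0.86 ± 0.28), Cdc45 (0.87 ± 0.26), Rrm1 (0.64 ± 0.23) and Cdt1 (0.41 ± 0.12) were also higher. Neither cyclin E gene was called, with Ccne1 at 0.22 ± 0.26 and Ccne2 at -0.16 ± 0.20. Ccne1 thus passed against non-tumour tissue and did not pass against wild-type tumours, and the difference between these comparisons was not tested.

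Among mitosis genes Cenpe was at 12.5 through 22.6 to 49.3 CPM in wild-type tumours and 9.24 through 51.4 to 101 CPM in ex/ex tumours (1.10 ± 0.29, edgeR adjusted p = 0.00363). Nusap1 was at 13.95 through 23.2 to 49.9 CPM and 10.8 through 47.3 to 94.5 CPM (0.87 ± 0.25, edgeR adjusted p = 0.00842). Mki67 was higher by 1.03 ± 0.30 (0.00845). Both genes of the outer kinetochore, Cenpe and Cenpf, and 3 of 4 spindle and motor genes (Kif11, Tpx2 and Nusap1) were called. The Cenpf call (edgeR adjusted p = 0.0424) was lost in 18 of 39 fits that left out 1 library, with p up to 0.0748, and that of Tpx2 (0.0462) in 22, with p up to 0.0835. Both were also lost with no count filter and with only the tumours fitted, and the calls of Aurkb and Rrm1 were lost in 10 and 8 of the 39 fits and with only the tumours fitted. Of the 6 mitotic kinases 3 were called, the checkpoint kinases Bub1 and Bub1b and the Aurora kinase Aurkb, whereas Aurka (0.10 ± 0.18) and Plk1 (0.19 ± 0.22) were not. Again 0 of the 4 cyclin and Cdk1 genes passed, with Cdk1 at -0.11 ± 0.22. Ex/ex tumour replicates 1 and 2 lay below all wild-type tumours for Cenpe, Nusap1 and Mki67, whereas for Mcm6 and Pcna no ex/ex tumour did.

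Without ex/ex tumour replicates 1 and 2 the counts were 15 S phase and 17 mitosis genes, without replicate 1 or 4 of the wild-type tumours the mitosis count was 14 or 15, and without ex/ex tumour replicate 1 or 2 alone it was 16 or 15. B cell markers summed to 10.8 to 3714 CPM in wild-type tumours. Of these markers 2 of 10 passed as higher in ex/ex (median 1.75), beside 15.2% of all tested genes. At an unadjusted p under 0.05 (edgeR) 7 of 10 passed, a threshold at which the share of all tested genes was not counted. Among germinal centre markers 8 of 9 tested were higher, 0 of 11 T cell markers were called, and 4 of 10 epithelial markers were lower. Red blood cell markers were lower for 5 of 5 tested (median -4.27, summed 29.4 to 255.3 CPM in wild-type and 2.83 to 15.9 CPM in ex/ex tumours), endothelial markers for 6 of 8, smooth muscle markers for 5 of 8 and fibroblast markers for 4 of 7. Their part in the result was not tested. Crypt stem cell markers were lower for 9 of 10, at 129 to 999 CPM summed in wild-type tumours. With Cd79a as a covariate 0 members of either stage were called, and 20 of the 23 called genes had fold changes below 0. Cd79a had medians of 8.74 CPM in wild-type and 462 CPM in ex/ex tumours. B cells and genotype therefore cannot be told apart by this fit. Sex and genotype cannot be told apart for the 3 ex/ex tumours that look male, and the counts without all 5 such libraries were 15 and 17.

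In wild-type mice, 0 of 20 S phase and 0 of 21 mitosis genes were called between tumours and non-tumour tissue, against 1.90% of tested genes higher and 3.15% lower (edgeR). Likewise 0 members passed at an unadjusted p under 0.05 and 0 by DESeq2. The S phase median was 0.20 and the mitosis median -0.001, within a range of -0.37 to 0.61 for all 41 genes. The largest S phase value was Mcm3 at 0.61 ± 0.48, with an SE close to the change itself. Limma-voom with sample quality weights called Gins1 and Birc5 higher and Pola1, Kif11, Nusap1 and Ccnb1 lower.

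Non-tumour tissue of both genotypes gave 0 called members by edgeR, DESeq2 and limma-voom, with 0 at an unadjusted p under 0.05 in edgeR, against 0.398% of tested genes higher in ex/ex and 1.02% lower. Ccne1 had the smallest p, at 6.06 ± 1.54 CPM (SD, n = 4) in wild type and 3.40 ± 1.20 CPM (SD, n = 6) in ex/ex (-0.83 ± 0.48, edgeR adjusted p = 0.609). The difference between the tumour changes of both genotypes was tested as an interaction, and 0 members were called by edgeR or DESeq2, against 0.0857% higher and 0.116% lower. In edgeR 7 S phase and 0 mitosis genes passed at an unadjusted p under 0.05. The share of all tested genes at that unadjusted threshold was not counted, so the 7 cannot be set against a background. The smallest edgeR adjusted p was 0.281 for Pcna (0.80 ± 0.33). The interaction medians were 0.83 for S phase and 0.47 for mitosis genes, beside -0.08 for all tested genes, and limma-voom called 16 and 10 members. A larger tumour change in ex/ex than in wild type is therefore not shown by the edgeR test.

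Levels were next set beside Cd79a within each kind of tumour. In the 17 ex/ex tumours, 19 of 20 S phase and 21 of 21 mitosis genes had a positive called slope on log2 Cd79a. This stood against 34.4% of tested genes with a positive and 30.3% with a negative called slope (edgeR adjusted p under 0.05, 15855 genes). Median slopes were 0.38 and 0.41, in log2 units per log2 unit of Cd79a, beside 0.01 for all tested genes. The exception was Ccne2, at 0.09 ± 0.07 (edgeR adjusted p = 0.274). A slope describes libraries that vary together and not single cells.

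In ex/ex tumours the S phase slopes with the smallest p were those of Mcm5 (0.58 ± 0.08, edgeR adjusted p = 2.26e-05), Mcm2 (0.52 ± 0.07) and Pola1 (0.60 ± 0.09). Mcm5 ran from 10.7 through 97.3 to 175 CPM over these tumours and Mcm2 from 10.96 through 76.8 to 132 CPM. Among mitosis genes the kinesin Kif20a (0.50 ± 0.08, edgeR adjusted p = 4.3e-05), Bub1b (0.55 ± 0.09) and Nusap1 (0.41 ± 0.07) had the smallest p. Kif20a ran from 6.40 through 40.7 to 73.4 CPM and Bub1b from 7.33 through 55.1 to 106 CPM. The shallowest called slopes were Cdt1 (0.11 ± 0.03), Pcna (0.22 ± 0.06), Tyms (0.22 ± 0.05) and Birc5 (0.22 ± 0.05).

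Ex/ex tumour replicate 2 held 4.41 CPM of Cd79a and replicate 1 held 83.3 CPM, whereas the other 15 held 272 to 739 CPM. Both also held the lowest S phase and mitosis means of their group. Without them the counts were 20 and 21 and the median slopes 1.22 and 1.18. Over the 14 tumours other than replicates 1 to 3, the medians were 1.11 and 1.07. All 10 epithelial markers had negative called slopes, and Epcam was at -0.34 ± 0.09.

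**Figure D4:**
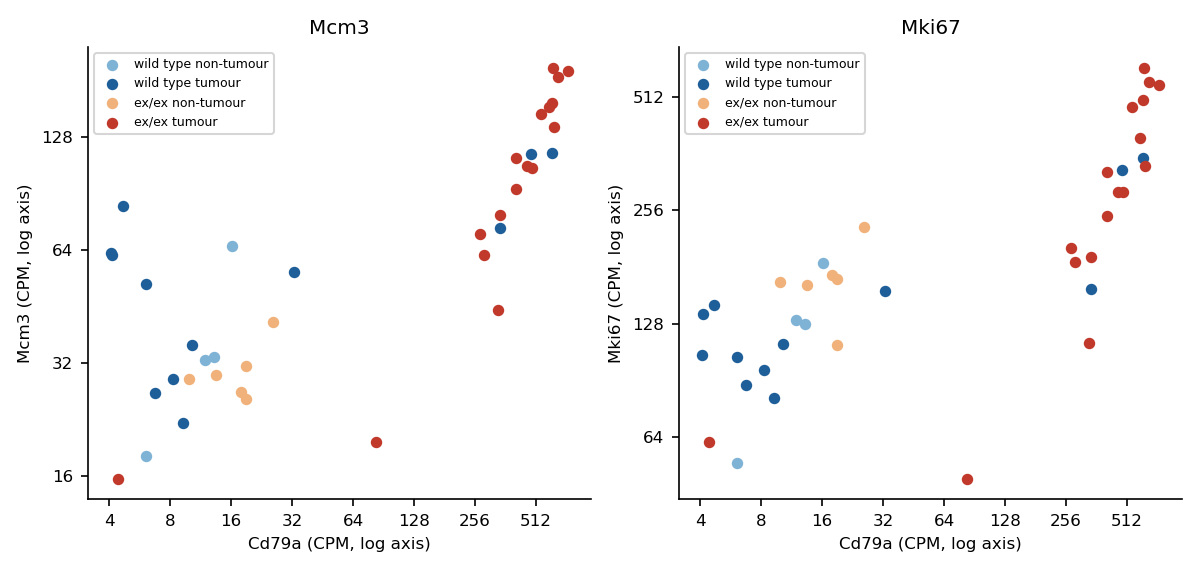
Mcm3 (left) and Mki67 (right) against Cd79a, each in CPM on log axes, 1 point a library, coloured by group. The 15 ex/ex tumours with 272 to 739 CPM of Cd79a rise together on both axes, and among the 9 wild-type tumours with little Cd79a the 3 with the lowest Cd79a have the highest Mcm3.

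Wild-type tumours fell into separate clusters by Cd79a. Replicates 1, 4 and 7 held 484, 616 and 342 CPM, and the other 9 held 4.07 to 32.8 CPM. Over all 12, 13 S phase and 9 mitosis genes had a positive called slope and 0 a negative one, against 31.3% and 27.2% of tested genes (edgeR, 15604 genes), with medians of 0.13 and 0.10. Mki67 had the smallest p (0.23 ± 0.04, edgeR adjusted p = 1.84e-04), followed by Pola1 (0.24 ± 0.04), Nusap1 (0.18 ± 0.03) and Cenpe (0.19 ± 0.04), and then Cdt1 (0.11 ± 0.03) and Mcm5 (0.23 ± 0.05). Over wild-type tumours Cdt1 ran from 16.9 through 21.2 to 38.2 CPM and Mcm5 from 16.7 through 39.7 to 107 CPM. Over the 9 tumours with little Cd79a 0 members were called, and the medians were -0.18 and -0.07. At an unadjusted p under 0.05 (edgeR), where the share of all genes was not counted, 1 S phase and 0 mitosis genes passed. The pooled slope therefore rests on the 3 lymphoid-rich libraries, and without replicates 1 and 4 alone 0 members were called. Leaving out replicate 1 gave 5 S phase and 5 mitosis genes, replicate 4 gave 7 and 5, and replicate 8 gave 16 mitosis genes.

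The 3 wild-type tumours with the lowest Cd79a, replicates 8, 9 and 10 at 4.66, 4.07 and 4.12 CPM, had S phase means of 5.01, 4.54 and 4.69, and the other 6 with little Cd79a had 3.64 to 4.37. Lgr5, a crypt stem cell gene and Wnt target, was at 81.1, 62.1 and 58.4 CPM in these 3 and at 8.81 to 33.8 CPM in the other 6. The mean log2 CPM over 10 crypt stem cell markers did not separate them. It was 6.275, 5.932 and 5.579 in these 3 and 4.504 to 5.731 in the other 6. Mcm3 was at 83.6, 62.9 and 62.2 CPM in these 3 libraries, Tyms was at 55.8, 39.9 and 34.6 CPM, and Mki67 was at 143, 106 and 136 CPM. The mitosis means of these 3 libraries were 5.44, 4.88 and 5.13, which overlap the 4.11 to 5.08 of the other 6. These libraries were picked out after their values were seen, so no test is given, and the part of epithelial stem cells in these levels was not tested.

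**Figure D5:**
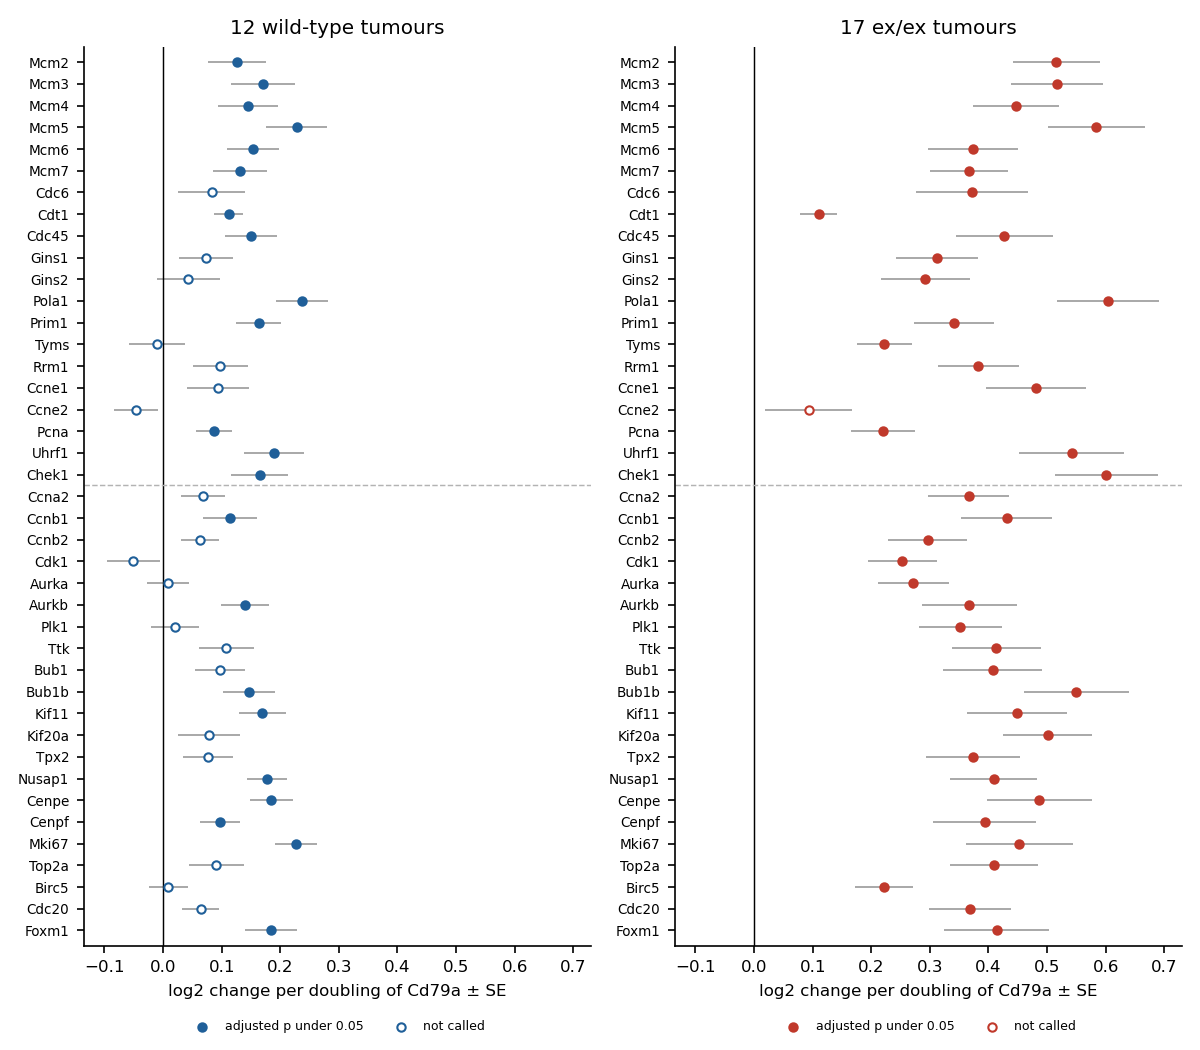
Slope of each gene on Cd79a, in log2 units per doubling of Cd79a ± SE, over 12 wild-type tumours (left) and 17 ex/ex tumours (right); S phase genes lie above the dashed line and filled points have an adjusted p under 0.05 over all tested genes. All but Ccne2 are filled on the right, while 22 of 41 are filled on the left and Ccne2, Cdk1 and Tyms lie below 0.

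The members also varied together. In ex/ex tumours the Spearman correlation of each gene with the mean of the rest of its stage was 0.88 to 0.998 for S phase and 0.971 to 1.0 for mitosis genes, over 17 libraries that share these depths and this Cd79a range. In wild-type tumours it was -0.245 to 0.993 and 0.636 to 0.986 over 12 libraries. The lowest value was that of Ccne2, which also had the lowest correlation with Cd79a there (-0.587). Correlation with Cd79a ran from 0.772 to 0.963 in ex/ex tumours and from -0.587 to 0.566 in wild-type tumours, with Mki67 highest in the latter.

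Of 12829 genes compared, those most like the S phase mean in ex/ex tumours included Mbd2, Pou2af1 and Rpap3 (Spearman correlation 0.998 over 17 libraries), then Epb41, Exosc8, Mthfd2, Plk4, Rad54l and Scimp (0.995). The mitosis mean was tracked by Asf1b, Cdca3, Eed, Ezh2, Phka1, Pou2af1, Rpap3 and Tubb5 (0.995), with Cdca2 and Cdca4 at 0.993. Pou2af1 encodes a B cell transcriptional coactivator and stood in both ex/ex lists. In wild-type tumours the S phase mean was most like Brca1, Tcf19 and Tmpo (0.993 over 12 libraries) and then Cep55, Nsd2, Rbmxl1, Rnf219, Trappc2 and Utp15 (0.986) and Arsb (0.979). Among the genes most like the mitosis mean there were Brca1 and Prr11 (0.993), Dlgap5, Ercc6l and Nsd2 (0.986), and Cenpi, Fancd2, Spag5 and Utp15 (0.979).

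Other genes of both stages were counted next. In ex/ex tumours over non-tumour tissue 25 of 40 other replication genes rose and 1 fell, beside 23.8% and 23.3% of all tested genes. The median of these 40 was 0.91. The smallest p were those of the clamp loader subunit Rfc2 (1.05 ± 0.23, edgeR adjusted p = 3.97e-04), the single-strand binding subunit Rpa1 (1.65 ± 0.36), the fork protein Wdhd1 (1.41 ± 0.32) and the ribonucleotide reductase subunit Rrm2 (1.80 ± 0.43). Between tumours 25 of 40 were higher in ex/ex and 0 lower (median 0.55), beside 15.2% and 18% of all tested genes. Among the 25 were Pola2 (0.53 ± 0.13), Rfc1 (0.96 ± 0.23) and the origin recognition subunit Orc3 (0.49 ± 0.12). In wild-type mice 0 of the 40 were higher in tumours and 1 was lower, beside 1.9% and 3.15% of all tested genes.

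Of 40 other mitosis genes 13 rose and 2 fell in ex/ex tumours over non-tumour tissue (median 0.54), and 13 of 40 is not far from the 23.8% of all tested genes that were higher. The spindle checkpoint gene Bub3 (0.67 ± 0.15), the phosphatase Cdc25b (1.40 ± 0.32) and the centromere gene Cenpn (1.54 ± 0.43) rose, and the cytokinesis genes Ect2 (-0.67 ± 0.21) and Anln (-0.68) fell. Between tumours 23 were higher in ex/ex and 0 lower (median 0.63), beside 15.2% and 18% of all tested genes. The 23 were led by Cdc25b (1.02 ± 0.24), the kinetochore scaffold Knl1 (1.15 ± 0.29), Cenpn (1.11 ± 0.32) and the spindle pole gene Aspm (0.99 ± 0.28). Securin (Pttg1) was the only one of the 40 called in wild-type tumours over non-tumour tissue (0.86 ± 0.22, edgeR adjusted p = 0.0159). The share of all tested genes called higher in that comparison was 1.9%. On Cd79a in ex/ex tumours 36 of the other replication genes had a positive called slope and 1 a negative one. Of the other mitosis genes 39 had a positive one. Among all tested genes 34.4% had a positive and 30.3% a negative called slope there. In wild-type tumours the counts of positive called slopes were 25 and 23, beside 31.3% of all tested genes. Of 35 cell cycle regulators 0 were higher in wild-type tumours than in surrounding tissue and 1, Wee1 (-0.82 ± 0.21), was lower. Among all tested genes 1.9% were higher and 3.15% lower there.

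Among 35 cell cycle regulators 11 rose and 4 fell in ex/ex tumours over non-tumour tissue, beside 23.8% of all tested genes higher and 23.3% lower, so the share that rose was near that of all genes and the share that fell was below it. The activating factors E2f1 (1.38 ± 0.36, edgeR adjusted p = 0.00214), E2f2 (0.75 ± 0.23) and E2f3 (0.44 ± 0.13) and the repressor E2f4 (0.48 ± 0.12) rose, whereas E2f5, E2f6, E2f7 and E2f8 were not called. E2f1 ran from 2.05 through 5.47 to 8.40 CPM in ex/ex non-tumour tissue and from 3.13 through 12.1 to 23.9 CPM in ex/ex tumours. Mybl2, which encodes B-Myb, rose by 1.90 ± 0.45, and Mybl1, which encodes A-Myb, rose by 5.33 ± 1.18, from a mean of 1.56 ± 0.59 to 64.5 ± 47.4 CPM. Foxm1, itself a member, was at 0.64 ± 0.35 and was not called.

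Of the D cyclins, which open the path to S phase, Ccnd3 rose (1.56 ± 0.31, edgeR adjusted p = 1.82e-04), while Ccnd1 (-0.09 ± 0.19) and Ccnd2 (-0.33 ± 0.17) were not called. The kinase inhibitor Cdkn2d rose (1.27 ± 0.27), Cdkn1c fell (-1.20 ± 0.31), and Cdkn1a, Cdkn1b, Cdkn2b and Cdkn2c were not called. Cdkn2a was called higher on few reads, at 0 CPM in 4 of 6 ex/ex non-tumour libraries, at most 0.131 CPM in the other 2, and 0.159 to 2.17 CPM in ex/ex tumours. Myc (0.51 ± 0.24) and Mycn (-0.19 ± 0.30) were not called. Tfdp2, Lin54 and the mitotic inhibitor Wee1 also fell.

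Between tumours 14 regulators were higher in ex/ex and 3 lower, beside 15.2% and 18% of all tested genes. Cyclin D1 (Ccnd1), a Wnt target in the gut, was lower in ex/ex at 28.9 through 49.1 to 75.0 CPM, against 56.7 through 87.7 to 162 CPM in wild-type tumours (-0.88 ± 0.15, edgeR adjusted p = 3e-05). Cdkn1c (-1.48 ± 0.26) and Mycn (-1.30 ± 0.23) were the other two lower genes. The higher genes included Rbl2 (0.38 ± 0.08), E2f2 (0.65 ± 0.17), E2f8 (0.95 ± 0.26), E2f4, E2f6, E2f7, Ccnd2, Ccnd3, Cdkn2c and Cdkn2d, and E2f1 was at 0.59 ± 0.26 (edgeR adjusted p = 0.0753). As a group, ex/ex tumours thus had lower cyclin D1 and higher cyclin D2 and cyclin D3 (Ccnd3, 0.80 ± 0.23) than wild-type tumours. On Cd79a within ex/ex tumours, 21 of 35 regulators had a positive and 6 a negative called slope. Among all tested genes 34.4% had a positive and 30.3% a negative one. Mybl1 had the steepest slope among the regulators (1.81 ± 0.20), followed by Mybl2 (0.57 ± 0.10). Myc (0.34 ± 0.04), E2f1 (0.43 ± 0.08) and Ccnd3 (0.32 ± 0.06) were also positive.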

How the data were processed

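Total RNA from freshly prepared tissue was purified on RNeasy columns and 500 ng made into strand-specific TruSeq mRNA libraries, per the labels' protocols. Trimmomatic 0.36, TopHat2 2.0.14, HTSeq and GRCm38 were used, per the submitters' processing notes; for the annotation, HTSeq version and strand setting nothing is given in these sources. The deposited values are whole-number read counts per gene, not normalized. HTSeq lines that name no gene (29.1 to 56.5% not uniquely aligned, 3.00 to 13.3% no feature, 0.203 to 0.842% ambiguous) stayed out of library sizes and tests. GENCODE M21 symbols matched 49326 of 49585 IDs; the rest held 0.0851% of counts.

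Groups came from the labelled genotype and tissue. Replicate numbers follow accession order and pair nothing. All 39 libraries entered 1 edgeR 4.0.16 quasi-likelihood fit (R 4.3.3) with TMM factors, filterByExpr (minimum count 10) and Benjamini-Hochberg adjustment over 16327 genes at 0.05; the common dispersion was 0.188. Standard errors were taken as the fold change (log2) divided by the root of F. Slopes on log2 CPM of Cd79a (prior count 2) were fitted within each tumour group. Alternatives used DESeq2 1.42.0, limma 3.58.1 (voom), other scaling, filters, libraries and covariates. The fits were tested on simulated data. Low counts limit the precision of the library with 438639 counts. Promoters are RefSeq windows.

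The members, lists and tests were chosen with earlier results of these data known. All 41 members could be named. Per comparison the 3 members of each stage and 4 genes of each other list with the smallest p are given, and any E2f, Ccnd, Cdkn or Myc gene could be named; Mybl2, Anln, Tfdp2, Lin54, Wee1 and, in the wild-type tumours, Tyms were named after their values were seen. Stages are described by counts and medians, without a test of the set. A few genes that this rule would name are not reported here.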

Additional observations from a re-analysis of the deposited data

Results flagged for a closer look

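Of 84 groups of 4 or 6 libraries examined (41 genes and Cd79a in non-tumour tissue), 12 had a library far from the others by Dixon's criterion. Chance alone meets it in about 5% of independent groups. These groups share libraries and so are not independent, and 12 of 84 cannot be set against that 5%. Wild-type replicate 1 and ex/ex replicate 4 gave 4 of the 12 each, and wild-type replicate 4 gave 3. No explanation was tested.

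Wild-type non-tumour replicate 4 stood high for Mcm4 (57.1 CPM, against 33.3 to 36.3 in the other 3), Tyms (29.5 CPM, against 24.2 to 24.6) and Rrm1 (102 CPM, against 65.1 to 66.6). This library was also the one rich in red blood cell genes. The shallow replicate 1 of the same group stood low for Prim1 (12.1 CPM, against 17.1 to 17.9) and was at 0 CPM for Ccnb1 (against 21.1 to 24.1), Cdc20 (against 26.8 to 32.0) and Ttk (against 11.5 to 13.7), where 1 count is worth 6.06 CPM.

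Ex/ex non-tumour replicate 4 stood low for Top2a (92.6 CPM, against 176 to 203 in the other 5), Kif11 (29.7 CPM, against 50.7 to 59.3), Bub1 (8.20 CPM, against 15.9 to 19.96) and Pola1 (13.2 CPM, against 19.1 to 21.7). Its mean over the 21 mitosis genes was 4.38 (log2 CPM), against 5.04 to 5.40 in the other 5. Tyms was high in ex/ex non-tumour replicate 3 (37.2 CPM, against 24.7 to 28.5).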

How the results depend on the processing

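No paired analysis was possible because the labels give no replicate numbers; those used here follow accession order. Counts not named here stayed within 1.5 times the main count, or at 0, under every alternative run, and where a value moved the cause was not tested. Tumours over non-tumour tissue in ex/ex gave 3 mitosis genes, and 7 with DESeq2, 5 with DESeq2 size factors in edgeR, 11 with limma-voom, 0 with both groups fitted alone, 11 without the libraries that look male and 11 without ex/ex tumour replicates 1 and 2 (an alternative chosen after seeing the data). Leaving out 1 library gave 0 to 8 there. Ex/ex over wild-type tumours gave 9 mitosis genes, and 17 with limma-voom, 17 without the libraries that look male, 17 without ex/ex tumour replicates 1 and 2, and 6 to 16 with 1 library left out. In wild-type tumours over non-tumour tissue limma-voom called 2 S phase and 4 mitosis genes, and in the interaction 16 and 10. Slopes on Cd79a in wild-type tumours gave 0 and 0 calls without replicates 1 and 4 and over 9 tumours (chosen after seeing the data), and 5 to 15 and 5 to 16 with 1 library left out.

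With Cd79a as a covariate the calls in ex/ex tumours over non-tumour tissue were 0 S phase and 1 mitosis gene, with Pola1 -0.57 and Mcm6 -0.10 turned in sign (log2). In ex/ex over wild-type tumours they were 0 and 0, with Cdc45 -0.054, Uhrf1 -0.29, Mcm2 -0.26, Mcm5 -0.33, Pola1 -0.000, Kif11 -0.23, Aurkb -0.17, Mcm4 -0.20, Prim1 -0.14, Cenpf -0.17, Nusap1 -0.12, Bub1 -0.030, Tpx2 -0.14, Mcm7 -0.091, Rrm1 -0.18, Mki67 -0.21, Chek1 -0.19, Bub1b -0.26, Mcm3 -0.33 and Cenpe -0.047. Over the 9 wild-type tumours the slopes that turned were Cdc45 -0.18, Uhrf1 -0.15, Foxm1 -0.025, Mcm2 -0.23, Mcm5 -0.13, Cdt1 -0.087, Pola1 -0.082, Kif11 -0.025, Aurkb -0.062, Mcm4 -0.18, Prim1 -0.12, Mcm6 -0.13, Cenpf -0.015, Pcna -0.15, Mcm7 -0.16, Chek1 -0.20, Bub1b -0.14, Ccnb1 -0.078 and Mcm3 -0.18. The shallow library limits what can be seen in wild-type non-tumour tissue, where 1 of its counts is 6.06 CPM.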
